A study of Mus musculus with 106 samples.

Results

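The promoters of 6916 long noncoding RNA (lncRNA) genes were examined for 2 histone marks in haematopoietic stem cells (HSC) and bone marrow-derived macrophages (BMDM). The members were taken from 8813 genes of type lincRNA, antisense or lncRNA on chromosomes 1 to 19, X and Y of the GRCm38 annotation. A gene was kept when each of its start sites lay more than 2.5 kb from the start site of any protein-coding gene, and its promoter was defined as 1 kb to either side of a start site. Of the members, 5327 were typed as lincRNA and 1589 as antisense. They had 9360 start sites, which formed 7374 separate promoter regions because neighbouring start sites overlap. The median distance to the nearest coding start site was 52361 bp, and 5844 members lay more than 10 kb away. By position, 5155 members were intergenic, 1663 overlapped a coding gene on the other strand only and 98 overlapped one on the same strand. The comparison set was the promoters of 21938 protein-coding genes, which gave 30751 promoters with all 8813 lncRNA genes.

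H3K27ac and H3K4me3 were measured by ChIP-seq in 70 libraries, 35 for each mark. HSC were bone marrow cells depleted of cells bearing CD3, CD4, B220, Ter119 or Gr1, so that they form an enriched progenitor population and not purified stem cells. BMDM were differentiated for 7 days in medium with 5 mmol/L glucose, whatever the disease state of the donor, and then either received medium alone (unstimulated) or were treated for 16 hours with LPS at 100 ng/mL together with IFN-γ at 10 ng/mL (LPS+IFN-γ). The mice were wild-type C57BL/6J aged 12 to 14 weeks, either controls or made diabetic with streptozotocin (42 to 45 mg/kg/day over 5 days), which destroys insulin-producing cells, and the diabetic mice were used 6 weeks after the last injection if nonfasted glucose exceeded 13.9 mmol/L. Each of the 12 groups of mark, cell state and disease had 6 libraries, except the 2 groups of unstimulated diabetic BMDM, which had 5. The labels number the libraries without saying that each came from its own mouse, so that p-values here measure the spread between these libraries.

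An lncRNA is a transcript that is not translated into protein, and its gene is read by RNA polymerase II from a promoter of the ordinary kind. H3K4me3 marks nucleosomes next to start sites, above all where the DNA is rich in CpG dinucleotides, whether the gene is highly transcribed or only held ready. H3K27ac marks active promoters and active enhancers alike. In a long intergenic region a peak over an lncRNA start site can therefore belong to a promoter, to an enhancer that is itself transcribed, or to both.

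Each library's data were a list of peaks, from 13730 to 277213 in length, and a longer list touched more promoters. Across the 35 lists of a mark, list length and the share of members touched by any peak correlated with Pearson r = 0.976 for H3K27ac and 0.993 for H3K4me3, which is a description, since both values come from the same list. A promoter was therefore called held only when 1 of the 10000 peaks with the highest −log10 p of that list overlapped it, and the peak's rank in the list, with 1 as the strongest, was the measure of level. Members held in this way still correlated with list length, at r = 0.477 for H3K27ac and 0.696 for H3K4me3. For tests, the rank was turned into a score, log2 of the number that is 1 more than 10000 divided by the rank, with 0 for a promoter that was not held. A score difference of 1 thus means a rank lower or higher by a factor of 2 within the list. The −log10 p of peak 10000 ran from 6.42 to 75.84 between lists, so a rank says where a promoter stood in its own library and not how much mark it carried.

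The labelled cell types were checked at the H3K27ac-held promoters of marker genes. Of 10 stem and progenitor markers, 2 to 6 were held in HSC libraries and 0 to 2 in BMDM libraries. Myb was held in 12 of 12 HSC and 0 of 11 unstimulated BMDM libraries. Meis1 went the other way, at 2 of 12 and 5 of 11, and Erg was held in no library. Of 10 macrophage markers, 0 to 1 were held in HSC and 3 to 6 in BMDM, while the defining markers Adgre1, Fcgr1 and Lyz2 were held in no library. Of 6 erythroid markers, 1 to 6 were held in HSC and 0 to 1 in BMDM, of 4 megakaryocyte markers 0 to 1 in any group, and none of the 5 neutrophil or the 5 lymphoid markers tested was held anywhere. Of 12 genes of the LPS+IFN-γ response, 2 to 5 were held in unstimulated and 3 to 6 in stimulated BMDM. Some libraries stood closer to the other stimulation state than to their own, by mean correlation of H3K27ac scores over all promoters. These were control unstimulated BMDM 1 (0.738 against 0.735), 5 (0.786 against 0.743) and 6 (0.814 against 0.780), control LPS+IFN-γ BMDM 5 (0.806 against 0.784) and diabetic LPS+IFN-γ BMDM 6 (0.799 against 0.775). By H3K4me3 scores 9 of 12 LPS+IFN-γ and 3 of 11 unstimulated libraries stood closer to the other state. Shares and calls were also computed without control unstimulated BMDM 5 and 6 and control LPS+IFN-γ BMDM 5, a choice made with earlier results of these data known.

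The start regions of 7 members show the range of sequences behind the findings. Of the 6916 members, 2370 matched one of 32851 promoters of RefSeq (GRCm38.p6) by symbol, each 300 bases long with 250 bases before the start site. The first set is shown because H3K27ac held the promoter in every library (Malat1), ranked it higher in HSC (Lockd, Jpx), held it in HSC but hardly in BMDM (Mirt1), or ranked it higher in BMDM (2310001H17Rik). They lie at chr19:5802623-5802922 on the minus strand, chr6:134928842-134929141 on the plus strand, chrX:103493308-103493607 on the plus strand, chr19:53464747-53465046 on the minus strand and chr6:129238433-129238732 on the minus strand. Each is printed 5′ to 3′ with CpG dinucleotides in capitals.
Malat1: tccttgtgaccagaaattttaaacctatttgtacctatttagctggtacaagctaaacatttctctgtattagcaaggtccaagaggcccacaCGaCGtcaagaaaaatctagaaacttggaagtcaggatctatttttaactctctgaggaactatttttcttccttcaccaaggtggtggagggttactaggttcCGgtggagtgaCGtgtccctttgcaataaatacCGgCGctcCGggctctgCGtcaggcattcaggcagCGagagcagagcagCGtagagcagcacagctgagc
Lockd: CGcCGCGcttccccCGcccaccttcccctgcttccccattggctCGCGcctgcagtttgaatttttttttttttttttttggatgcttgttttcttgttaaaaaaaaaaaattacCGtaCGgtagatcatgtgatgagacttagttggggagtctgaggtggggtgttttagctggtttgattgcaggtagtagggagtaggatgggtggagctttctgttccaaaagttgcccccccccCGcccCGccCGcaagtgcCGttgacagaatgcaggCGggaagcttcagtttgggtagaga
Jpx: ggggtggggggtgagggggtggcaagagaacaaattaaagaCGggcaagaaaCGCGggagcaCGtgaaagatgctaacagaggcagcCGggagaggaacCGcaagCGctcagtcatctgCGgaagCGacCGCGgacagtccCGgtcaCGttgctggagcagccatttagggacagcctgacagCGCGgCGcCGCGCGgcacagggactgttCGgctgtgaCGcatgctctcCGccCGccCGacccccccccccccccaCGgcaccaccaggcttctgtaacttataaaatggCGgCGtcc
Mirt1: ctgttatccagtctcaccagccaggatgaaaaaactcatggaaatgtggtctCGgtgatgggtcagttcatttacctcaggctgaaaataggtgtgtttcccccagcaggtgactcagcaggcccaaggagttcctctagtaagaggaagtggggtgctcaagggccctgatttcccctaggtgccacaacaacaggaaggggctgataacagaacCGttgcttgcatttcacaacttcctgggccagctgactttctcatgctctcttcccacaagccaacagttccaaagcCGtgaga
2310001H17Rik: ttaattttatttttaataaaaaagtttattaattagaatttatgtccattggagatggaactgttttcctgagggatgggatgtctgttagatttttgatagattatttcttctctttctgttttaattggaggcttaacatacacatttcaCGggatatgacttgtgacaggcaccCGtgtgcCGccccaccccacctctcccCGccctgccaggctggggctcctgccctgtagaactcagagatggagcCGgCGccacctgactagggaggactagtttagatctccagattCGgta

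The second set is shown because H3K4me3 held these promoters while H3K27ac held them in no library. Miat lies at chr5:112228899-112229198 on the minus strand and Mir9-3hg at chr7:79499776-79500075 on the plus strand.
Miat: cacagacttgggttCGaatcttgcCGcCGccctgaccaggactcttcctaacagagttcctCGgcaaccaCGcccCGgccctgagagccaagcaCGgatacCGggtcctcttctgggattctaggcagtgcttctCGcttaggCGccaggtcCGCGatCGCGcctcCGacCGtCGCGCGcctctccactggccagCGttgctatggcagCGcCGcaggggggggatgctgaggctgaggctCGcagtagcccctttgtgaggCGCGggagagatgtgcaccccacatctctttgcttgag
Mir9-3hg: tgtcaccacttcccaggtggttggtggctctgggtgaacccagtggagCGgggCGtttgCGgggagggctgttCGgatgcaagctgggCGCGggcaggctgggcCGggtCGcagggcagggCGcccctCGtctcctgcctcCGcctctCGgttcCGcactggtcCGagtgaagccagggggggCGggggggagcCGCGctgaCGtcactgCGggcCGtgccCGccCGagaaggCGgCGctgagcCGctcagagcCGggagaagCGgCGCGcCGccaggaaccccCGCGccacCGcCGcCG

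The 300 bases held 10 CpG in Malat1, 13 in Lockd, 27 in Jpx, 3 in Mirt1, 7 in 2310001H17Rik, 25 in Miat and 35 in Mir9-3hg. Both members held by H3K4me3 alone were thus among the 3 richest in CpG, and Mirt1, which only H3K27ac held, was the poorest. Motifs of blood cell transcription factors were searched on both strands in the 7 sequences. Mirt1 alone held any, with the PU.1 motif GAGGAAGT at −107, the AP-1 motif TGANTCA at −140 and the RUNX motif TGTGGT at −206 from the start site, and the GATA motif AGATAAG was in none. Over all RefSeq promoters, 3.20% held the PU.1 motif, 7.81% the AP-1 motif, 16.8% the RUNX motif and 3.04% the GATA motif, against 3.33%, 10.0%, 18.3% and 6.67% of the 60 members held by H3K27ac in 18 or more libraries. Over the 2366 members searched, held or not, the shares were 3.59%, 10.6%, 20.9% and 4.06%, and of the 52 members held by H3K4me3 in 18 or more libraries 0%, 5.77%, 21.2% and 3.85% held them. Such a match is a description of letters and not a binding site.

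Few lncRNA promoters were held. In the H3K27ac libraries 131 to 192 of the 6916 members were held, which is 1.89% to 2.78% with a median of 2.14%. In the H3K4me3 libraries 110 to 168 were held, which is 1.59% to 2.43% with a median of 1.85%. The medians for protein-coding promoters were 40.7% and 41.0%. The mean difference within libraries was −38.6 percentage points for H3K27ac and −38.7 for H3K4me3, lower for lncRNA promoters in 35 of 35 libraries of each mark (permutation test over sign changes, two-sided, adjusted p = 1e-05, the smallest that 100000 resamples can give). The lncRNA promoters that were held also stood lower in the lists. Their median rank over libraries was 6353 for H3K27ac against 4219 for coding promoters, and 5992 against 4379 for H3K4me3, in the same direction in 35 of 35 libraries of each mark. A gene was held when a peak overlapped any of its start sites, and its rank was the best over them. The 21938 coding genes had 93513 start sites and the 6916 members 9360, so that coding genes had more start sites each. The part of this in either difference was not tested. With all deposited peaks in place of the top 10000, 9.27% to 26.2% of members carried an H3K27ac peak and 2.49% to 39.1% an H3K4me3 peak.

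**Figure D1:**
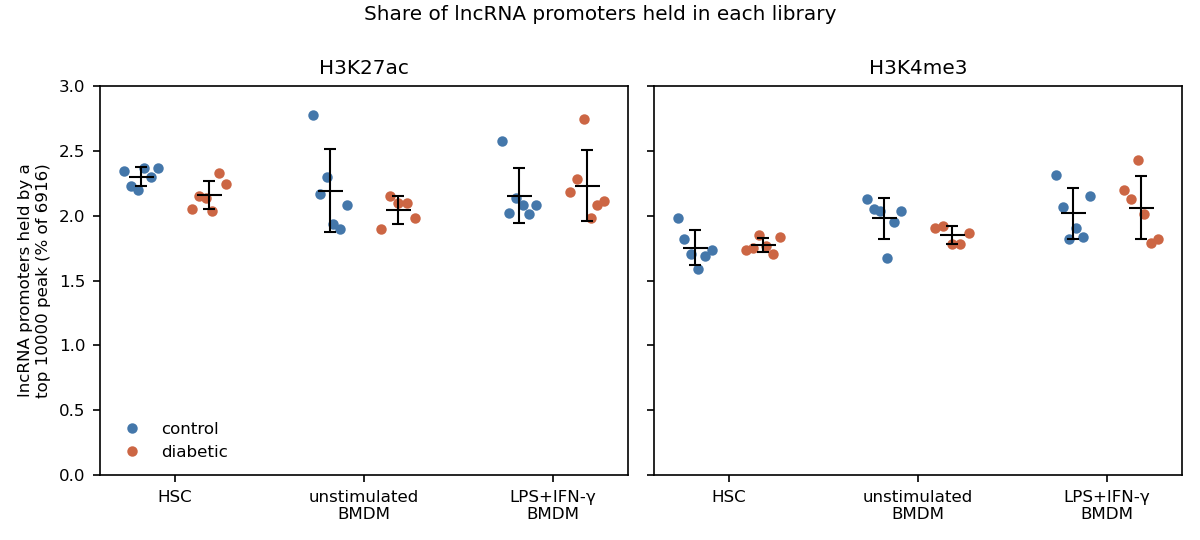
Share of the 6916 lncRNA promoters held by a top 10000 peak, in percent, for each library (points) with the group mean and SD (black), by cell state and disease (blue, control; orange, diabetic). The points lie between 1.59% and 2.78% in both panels, and control and diabetic libraries overlap in every cell state.

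Over all libraries of a mark, 478 members (6.91%) were held at least once by H3K27ac and 483 (6.98%) by H3K4me3. The 2 sets shared 269 members, which is 56.3% of the first and 55.7% of the second. Neither mark held the remaining 6224 members (90.0%) in any library, and 2568 members had no peak in any of the 70 deposited lists. Recurrence differed between the marks. H3K27ac held 121 members in 18 or more of its 35 libraries and 41 in all of them, whereas H3K4me3 held 109 in 18 or more and 1 in all. The same contrast was seen among coding genes, 4318 of which H3K27ac held in all libraries and 833 of which H3K4me3 did. Members held only in a single library numbered 116 and 134, and such members carry little information on their own.

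The share held was far higher among promoters rich in CpG. A start site was called CpG-rich when the 1 kb around it had a GC content of at least 50% and a ratio of observed to expected CpG of at least 0.6. By that measure 172 members (2.49%) had a CpG-rich start site, against 51.2% of coding genes. Of the CpG-rich members, a median of 38.4% were held by H3K27ac and 41.9% by H3K4me3, while of the other members 1.22% and 0.919% were. Over all 35 libraries, 106 of the 172 were held at least once by H3K27ac and 153 by H3K4me3. CpG-rich coding promoters reached 70.4% and 72.4%, and other coding promoters 9.97% and 8.57%. CpG-rich members stayed below CpG-rich coding promoters in 35 of 35 libraries of each mark, and so did the other members against the other coding promoters. The difference between lncRNA and coding promoters was thus seen within both CpG classes. A gene counted as CpG-rich when any of its start sites was, and coding genes had more start sites each. The classes were not matched for the number of start sites, and its part in these differences was not tested.

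**Figure D2:**
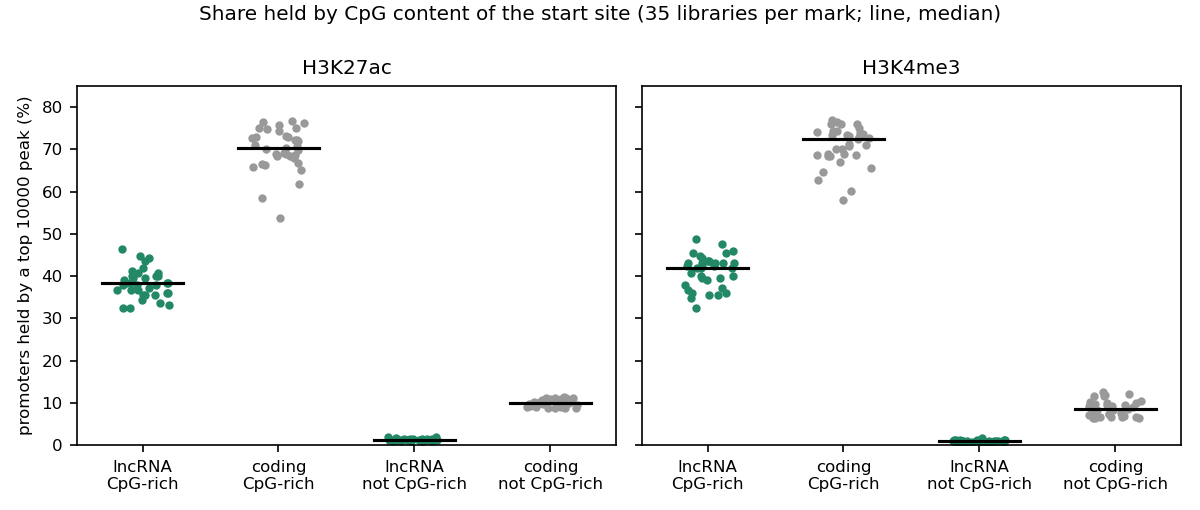
Share of promoters held by a top 10000 peak, in percent, for lncRNA (green) and protein-coding genes (grey) with and without a CpG-rich start site; each point is 1 of 35 libraries per mark and lines are medians. CpG-rich lncRNA promoters (medians 38.4% and 41.9%) lie between CpG-rich coding promoters (70.4% and 72.4%) and coding promoters that are not CpG-rich (9.97% and 8.57%).

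Position was also related to the share held. The 446 members 2.5 to 5 kb from a coding start site had a median share of 3.81% for H3K27ac and 3.36% for H3K4me3. At 5 to 10 kb (626 members) the shares were 2.88% and 3.35%, at 10 to 50 kb (2318 members) they were 3.41% and 2.5022%, and beyond 50 kb (3526 members) 1.02% and 0.993%. The share of both marks was lowest beyond 50 kb, and that of H3K4me3 was already lower at 10 to 50 kb than nearer by. lincRNA promoters were held at 2.29% and 1.93%, and antisense promoters at 1.64% and 1.64%.

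A small set of lncRNA promoters carried H3K27ac in every library. Malat1, a highly abundant RNA of nuclear speckles (chr19:5795690-5802672, intergenic), had the best worst rank of any member. Its ranks ran from 1 to 1997 over the 35 libraries with a median of 136. In control HSC its best peak ranked 6, 44, 1997, 54, 33 and 286, and in control LPS+IFN-γ BMDM it ranked 1, 46, 250, 136, 4 and 238. The groups of Malat1 ranks overlapped in all cell states. The other 9 of the 10 most constant members were 1700096K18Rik (median rank 598), 4932422M17Rik (503), C030034I22Rik (466), 2610037D02Rik (745), D730003I15Rik (1080), 6720427I07Rik (395), Fbxl12os (1164), B930059L03Rik (801) and 1300014J16Rik (1038). All 10 were intergenic, 7 had a CpG-rich start site, and none of their ranks was worse than 5070. The nearest coding start sites were 2850 to 32930 bp away, among them those of Zfp36l1 (1300014J16Rik), Arid2 (2610037D02Rik), Setd1b (4932422M17Rik) and Atf3 (D730003I15Rik). For H3K4me3 the only member held in all libraries was Gm8066 (chr5:137510253-137517501), which overlaps a coding gene on the other strand and lies 7735 bp from Pop7. Its ranks ran from 139 to 6502 with a median of 2545.

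The marks were then compared on the same chromatin, since libraries of 1 number, cell state and disease group share an input. In HSC, H3K27ac held 2.23% ± 0.117 (SD, n = 12) of members and H3K4me3 1.76% ± 0.0987, a mean difference of 0.466 percentage points in favour of H3K27ac in 12 of 12 pairs (exact permutation test over sign changes, two-sided, adjusted p = 0.00146 over 3 cell states). In unstimulated BMDM the difference was 0.204 points (9 of 11 pairs, exact permutation test, adjusted p = 0.0083) and in LPS+IFN-γ BMDM 0.152 points (8 of 12 pairs, exact permutation test, adjusted p = 0.0083). In BMDM, coding promoters went the other way, with 40.0% held by H3K27ac and 41.1% by H3K4me3 when unstimulated, and 39.2% against 40.8% after LPS+IFN-γ. In HSC coding promoters went the same way as lncRNA promoters, with 42.9% held by H3K27ac and 39.9% by H3K4me3. The HSC difference passed under every alternative run. The BMDM differences did not pass when peaks were ranked by fold (−0.05 and 0.0277 points), and with all deposited peaks they turned to −3.69 and −3.80 points. Compared without the pairing, the difference of 0.152 points in LPS+IFN-γ BMDM did not pass either. Without the 3 control libraries named above the 2 paired BMDM differences were 0.251 and 0.150 points and passed (exact permutation test, adjusted p = 0.0117 and 0.0166).

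The overlap of both marks on lncRNA promoters was described without a test. In a pair of libraries from HSC, 51 to 82 members were held by both marks, and a median of 26.2% of the members held by either mark were held by both, against 59.0% of coding genes. In unstimulated BMDM the medians were 31.4% and 65.4%, and in LPS+IFN-γ BMDM 33.8% and 65.996%. The highest share of a pair of lists for members (37.8%, 47.1% and 44.5% in the 3 cell states) stayed below the lowest for coding genes (50.6%, 57.0% and 53.0%).

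Members were sorted by whether a mark held them in a majority of the libraries of a cell state and the other mark held them in none. In HSC, 24 members were held by H3K27ac only, 31 by H3K4me3 only and 52 by both in a majority. Of these, 25.0%, 67.7% and 73.1% had a CpG-rich start site. In unstimulated BMDM the counts were 18, 25 and 71, of which 3, 15 and 44 members were CpG-rich (16.7% and 62.0% for the first and the last), and in LPS+IFN-γ BMDM they were 10, 28 and 69, with 20.0%, 46.4% and 63.8% CpG-rich. The order held in all 3 cell states, with the members held by H3K27ac only the poorest in CpG. Coding genes showed the same order at a higher level, 52.8%, 88.0% and 95.4% in HSC.

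The H3K27ac-only members of HSC included Neat1, the RNA scaffold of paraspeckles (chr19:5824708-5845478), held by H3K27ac in 12 of 12 libraries and by H3K4me3 in 0. They also included Mirt1 (10 of 12 and 0), 1700113A16Rik (12 of 12 and 0), which lies 9440 bp from Mef2d, and 5033406O09Rik (12 of 12 and 0). In control HSC the Neat1 promoter ranked 1665, 3533, 4391, 1099, 4001 and 5188 for H3K27ac. Its H3K4me3 peaks in the same samples ranked 23067, 19962, 17054, 15381, 32215 and 15494, so that H3K4me3 was listed there too, but below the first 10000. Jpx, an RNA that activates Xist in X inactivation, was held by H3K27ac in 12, 10 and 12 libraries of the 3 cell states and by H3K4me3 in 2, 0 and 0, although its start site is CpG-rich.

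The H3K4me3-only members included several beside or across from genes of development and nervous system function. Mir124a-1hg and Mir9-3hg, whose transcripts yield microRNAs typical of neurons, were held by H3K4me3 in 9, 8 and 7 and in 9, 5 and 5 libraries of the 3 cell states in the same order, and by H3K27ac in none. C130071C03Rik, a host of another miR-9 gene, which lies 68493 bp from Mef2c, was held by H3K4me3 in 11 of 12, 11 of 11 and 12 of 12 libraries and by H3K27ac in 0. In control unstimulated BMDM its H3K4me3 peak ranked 5479, 3861, 1736, 7456, 2656 and 1308. Others in HSC were 1700039E22Rik (11 of 12 libraries), which overlaps a coding gene on the other strand and lies 76023 bp from Pax2, Gm12462 (9 of 12) at 18692 bp from Pax5, the B cell factor gene, and Rncr4 (10 of 12), named for the retina. In stimulated BMDM the class held Gm38708 (9 of 12) at 3210 bp from Gata2, a stem and progenitor factor gene, and Gm33460 (9 of 12) at 10238 bp from Eomes, a T-box factor gene. These examples were chosen from the class after their values were seen, and the class was not tested for a theme.

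The shares of lncRNA promoters held in HSC and unstimulated BMDM differed by 0.227 points or less, and whether a difference passed depended on the setting. For H3K27ac the mean was 2.30% ± 0.0745 in control HSC and 2.19% ± 0.322 in control unstimulated BMDM (n = 6 each, exact permutation test, adjusted p = 0.476), and 2.16% ± 0.111 against 2.04% ± 0.105 in diabetic mice (n = 6 and 5, exact permutation test, adjusted p = 0.173). For H3K4me3 it was 1.75% ± 0.134 in HSC and 1.98% ± 0.159 in BMDM of control mice (exact permutation test, n = 6 each, p = 0.0368, adjusted p = 0.147 over 4 comparisons), and 1.77% ± 0.0576 against 1.85% ± 0.0693 in diabetic mice (exact permutation test, n = 6 and 5, adjusted p = 0.152). None of the 4 differences passed at the top 10000. At a fixed number of peaks the H3K4me3 difference in control mice passed with the top 20000 (−0.521 points) and with ranking by fold (−0.412), and the H3K27ac difference in diabetic mice passed with the top 20000 (0.776), with fold (0.217) and with 250 bp promoters (0.214), at adjusted p from 0.026 to 0.039 (exact permutation tests). Without control unstimulated BMDM 5 and 6, the differences in control mice were 0.006 points for H3K27ac, in place of 0.108, and −0.219 for H3K4me3, and neither passed. The control H3K4me3 lists averaged 59901 peaks in HSC and 159292 in BMDM. With all deposited peaks that difference grew to −14.7 points and passed (adjusted p = 0.0173, exact permutation test), and the part of list length in it was not tested. The top 10000 difference also passed without control unstimulated BMDM 4 (−0.287 points, exact permutation test, adjusted p = 0.026).

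At single promoters the 2 cell types did differ for H3K27ac. The score was tested for every lncRNA and coding promoter held in at least 3 of the libraries compared, by an exact permutation test with p-values adjusted over all promoters tested, and a promoter was called at an adjusted p under 0.05. In control mice 213 of 10682 promoters tested were lncRNA members. Of these, 7 were called higher in HSC, where 5.27% of all promoters were called in that direction, and 13 (11 separate regions) were called higher in unstimulated BMDM, against 3.89% of all. In diabetic mice 181 of 10584 were members, of which 5 (4 regions) were called higher in HSC (4.44% of all) and 19 (16 regions) higher in BMDM (5.89% of all). The median score difference of the members tested was 0.02 in control and 0.04 in diabetic mice, against 0.11 and 0.10 over all promoters tested. Of the members called, 1 was called higher in HSC and 11 (9 regions) higher in BMDM in both disease groups, which share no library. The share of all promoters called in both groups is not given, so these counts have no background. limma, a linear model with a shared variance estimate run on the same scores, called 14 and 21 members (6.57% and 11.6% of those tested), against 8.52% and 12.3% of all promoters. Without control unstimulated BMDM 5 and 6, the exact test called 0 members in control mice, while limma called 12. With 6 against 4 libraries, 9.52% of promoters must reach the smallest p of the exact test before any can be called at that p. The part of this limit in the loss of calls was not tested. Leaving out any single library gave 5 to 21 members by limma in control mice and 12 to 18 in diabetic mice. In control mice the fewest came without control HSC 5 and the most without control unstimulated BMDM 5. The limma counts without libraries also stand without the share of all promoters called.

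Among the members higher in BMDM, Gm26660 had the largest score difference in control mice. It is an intergenic lncRNA on chromosome 14 (chr14:25315873-25379609), 79576 bp from Zmiz1, which encodes a transcriptional coregulator. In control HSC its H3K27ac peak ranked 6723, 5334, 5240, 6667, 6065 and 3418, and in control unstimulated BMDM 220, 191, 559, 61, 333 and 512. The groups did not overlap, and every HSC library stood far below every BMDM library. The score difference, HSC minus BMDM, was −4.44 ± 0.502 (SE; exact permutation test, n = 6 each, adjusted p = 0.0333; limma adjusted p = 0.0006). In diabetic mice it ranked 3804, 5230, 4530, 4598, 7375 and 9079 in HSC and 243, 1114, 375, 181 and 167 in BMDM, a difference of −4.13 ± 0.537 (exact permutation test, n = 6 and 5, adjusted p = 0.0312; limma adjusted p = 0.00141). After LPS+IFN-γ its ranks were 577, 603, 645, 257, 80 and 646 in control and 32, 1483, 556, 1162, 256 and 201 in diabetic BMDM, which overlapped those without stimulation. H3K4me3 at the same promoter showed no such difference (control mice, score difference 0.10, exact permutation test, adjusted p = 0.989).

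2310001H17Rik (chr6:129208412-129238725) lies 36641 bp from Cd69, which encodes an early activation antigen of leukocytes. Its ranks were 6520, 5938, 5911, 2234, 5947 and 5989 in control HSC and 546, 849, 1895, 522, 1500 and 266 in control unstimulated BMDM. The highest HSC library, at 2234, stayed below the lowest BMDM library, at 1895. The score difference was −2.77 ± 0.493 in control mice (exact permutation test, n = 6 each, adjusted p = 0.0333) and −3.51 ± 1.04 in diabetic mice (exact permutation test, n = 6 and 5, adjusted p = 0.0312). Gm29340 (chr2:116972575-116976428) went from 1 HSC library outside the first 10000 and ranks of 7621, 5254, 5250, 8495 and 5629 to ranks of 53, 103, 192, 2417, 2309 and 3710 in control BMDM (difference −3.69 ± 1.11). Gm38399 (chr1:135606447-135688105), which overlaps a coding gene on the same strand and lies 31956 bp from the Csrp1 start site, was held in 3 of 6 control HSC libraries at ranks of 8507, 8990 and 7701 and in 6 of 6 BMDM libraries at ranks from 408 to 5319 (difference −2.70 ± 0.703). All 4 of these members, and G730013B05Rik, were called in both disease groups by the exact test and by limma.

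Members held in BMDM but in no HSC library of the comparison included Gm13067 in control mice, 38352 bp from Gpr157. It ranked 1150, 1358, 3520, 5036, 8551 and 7610 in control unstimulated BMDM, whereas its best HSC rank there was 10461. In diabetic mice 1 HSC library held it, at 8453, and the difference was −1.46 ± 0.395. Gm16217 overlaps a coding gene on the other strand, 13088 bp from the start of Lrp1, which encodes a large endocytic receptor. It was held in 0 of 6 HSC and 6 of 6 BMDM libraries of control mice (−1.28 ± 0.359). Gm42418, Gm26917 and AY036118 lie together near 39.8 Mb of chromosome 17, at chr17:39843013-39848788, in a stretch that carries ribosomal RNA gene sequence, and share 1 promoter region, with the same rank in each library that held it. In control mice these were 4407, 1028, 8855, 1578, 2 and 2451 in BMDM, against 1 of 6 HSC libraries held, at 8312. The exact test called the region in both disease groups, but limma did not (adjusted p = 0.192 and 0.120). Because ribosomal RNA genes exist in many near-identical copies, reads at this region cannot be assigned to 1 place, and its values are uncertain.

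Fewer members were called higher in HSC than in BMDM, by an exact test that does not treat the 2 directions alike in diabetic mice. Gm28707 (chr13:42049334-42050287) lies 2687 bp from Hivep1, which encodes a zinc finger transcription factor. It ranked 3628, 2081, 1169, 341, 1589 and 2382 in control HSC and 3401, 6229, 5474, 5474, 4947 and 7182 in control BMDM, where 1 BMDM library overlapped the HSC range. The score difference was 1.83 ± 0.506 (exact permutation test, n = 6 each, adjusted p = 0.0473). 4930481A15Rik (chr19:5406740-5422847) ranked 2723, 7149, 4981, 2086, 4962 and 5070 in control HSC, and in no unstimulated BMDM library of either disease group did it reach the first 10000. Its difference was 1.27 ± 0.270 in control mice (exact permutation test, n = 6 each, adjusted p = 0.0333). 4930481A15Rik was held in 12 of 12 HSC libraries but was not called in diabetic mice. With 6 HSC against 5 BMDM libraries there, the exact test can miss a member held in every HSC and no BMDM library. How far this shaped the counts of the 2 directions was not tested. 4930553M12Rik, 11821 bp from Ifne, was the single member called higher in HSC in both disease groups. It was held in 12 of 12 HSC libraries and in 0 of the 23 BMDM libraries, with ranks from 1528 to 9733 in control and 6449 to 9502 in diabetic HSC, although limma called it in diabetic mice only (adjusted p = 0.164 and 0.0452). The other members called in control mice were B230208H11Rik (difference 0.98), 2900076A07Rik (0.83), AC132957.1 (0.59) and Gm23925 (0.51), the last not by limma.

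In diabetic mice Gm44238, Jpx and the pair E230001N04Rik and Gm20109 were also called higher in HSC. Jpx ranked 2574, 3116, 3643, 1771, 4597 and 4508 in diabetic HSC and 9493, 9129, 4736 and 5649 in 4 of 5 diabetic BMDM libraries, with no overlap (difference 1.22 ± 0.308, exact permutation test, n = 6 and 5, adjusted p = 0.0312). In control mice Jpx went the same way without passing (1.38 ± 0.381, exact permutation test, n = 6 each, adjusted p = 0.0714). E230001N04Rik and Gm20109 share their promoter, 5193 and 5621 bp from Fkbp5, a glucocorticoid-induced gene, and were held in 6 of 6 HSC and 1 of 5 BMDM libraries (0.92 ± 0.156). Gm44238 shares a promoter region with Lockd, an lncRNA downstream of the cell cycle inhibitor gene Cdkn1b whose locus has been described as an enhancer of that gene in erythroid cells. The Lockd promoter ranked 1725, 2336, 2196, 712, 132 and 835 in diabetic HSC and 5486, 6003, 9350, 5926 and 2538 in diabetic BMDM, with no overlap. Its score difference was 2.52 ± 0.707, which just missed the threshold (exact permutation test, n = 6 and 5, adjusted p = 0.0514), and in control mice it was 1.33 ± 0.473 (adjusted p = 0.0913, exact permutation test). Gm44238, counted over its own start site, passed in diabetic mice (2.86 ± 0.746, adjusted p = 0.0419, exact permutation test). Erythroid markers moved with the same comparison, at 1 to 6 of the 6 markers held in HSC libraries against 0 to 1 in BMDM. Hba-a1 was held in 7 of 12 HSC and 0 of 11 unstimulated BMDM libraries, whereas Klf1 was held in 12 and 10. The part of erythroid cells in these HSC results was not tested.

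**Figure D3:**
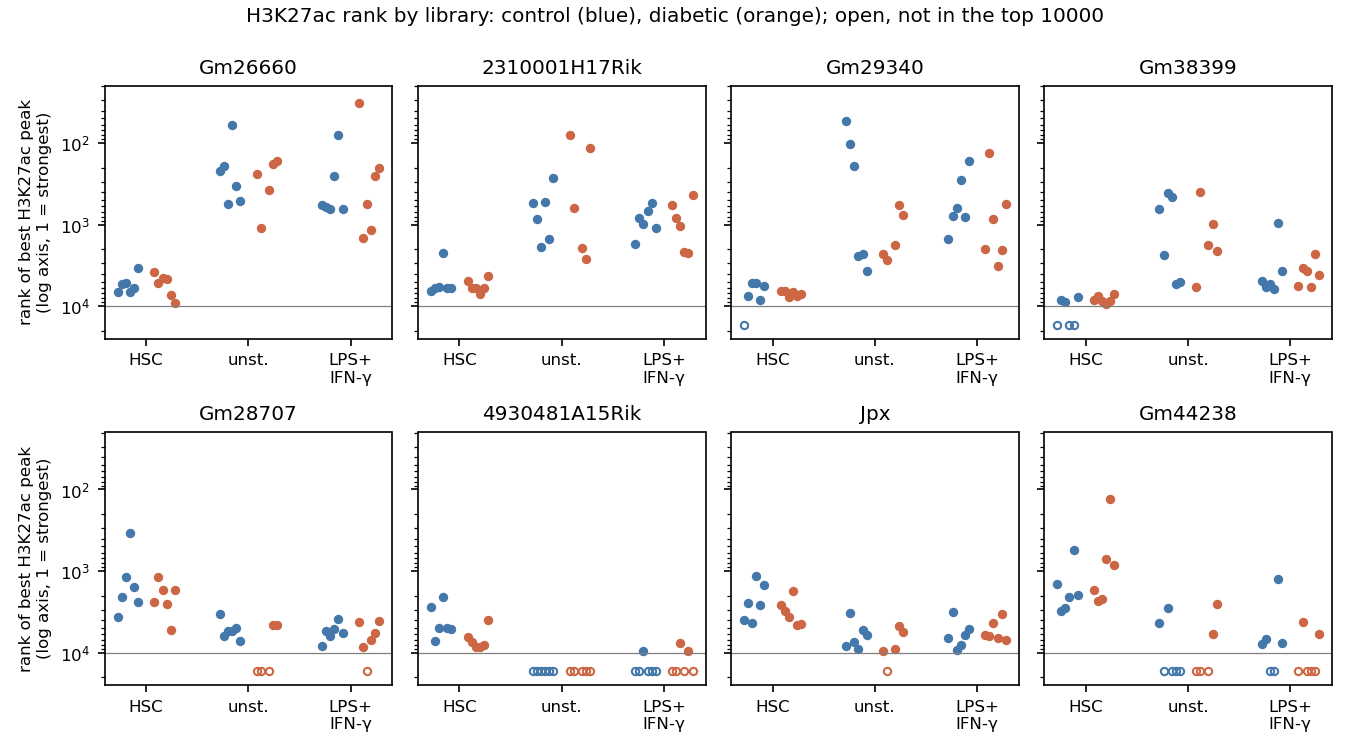
Rank of the best H3K27ac peak at 8 lncRNA promoters in each library (log axis, 1 is the strongest; blue, control; orange, diabetic), with open points below the line for libraries in which no top 10000 peak overlapped the promoter. The upper row stands higher in unstimulated and stimulated BMDM than in HSC, as for Gm26660 at ranks 61 to 559 against 3418 to 6723 in control mice, and the lower row stands higher in HSC.

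H3K4me3 gave no called promoter of either kind between HSC and unstimulated BMDM in the exact test, 0% in both disease groups. At an unadjusted p under 0.05 there were 23 of 199 members tested in control and 27 of 187 in diabetic mice, which is 11.6% and 14.4%, against 2148 of all 11907 promoters tested in control and 12.5% of all in diabetic mice, and limma called 0 members in each and 10 and 0 promoters in all. Groups without overlap were found at 4 of 199 members in control mice (1.95% of all promoters tested) and 6 of 187 in diabetic mice (1.93% of all). These counts are too small to set the members apart from the background. 2610037D02Rik stood higher in HSC, at 944, 1244, 535, 1584, 3972 and 143 in control HSC against 4063, 5825, 8119 and 8415 in the 4 of 6 BMDM libraries that held it (difference 3.02 ± 0.692, exact permutation test, n = 6 each, adjusted p = 0.111). Gm45894 stood higher in BMDM, held at rank 6983 or better in 6 of 6 control BMDM libraries against no control HSC library (−1.76 ± 0.758). The others were Gm11837 (HSC higher) and Gm43177 (BMDM higher) in control mice, and in diabetic mice 6720427I07Rik, Gm15283 and Gm27032 (HSC higher) and Gm39469 and Mypopos (BMDM higher). 1700039E22Rik also stood higher in diabetic HSC (0.70) and was named after its values were seen.

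The share of lncRNA promoters held did not differ past the threshold between LPS+IFN-γ and unstimulated BMDM. For H3K27ac it was 2.15% ± 0.212 against 2.19% ± 0.322 in control BMDM (n = 6 each, exact permutation test, adjusted p = 0.777) and 2.23% ± 0.272 against 2.04% ± 0.105 in diabetic BMDM (n = 6 and 5, exact permutation test, adjusted p = 0.333). For H3K4me3 it was 2.02% ± 0.196 against 1.98% ± 0.159 in control (exact permutation test, n = 6 each, adjusted p = 0.777) and 2.06% ± 0.241 against 1.85% ± 0.0693 in diabetic BMDM (exact permutation test, n = 6 and 5, adjusted p = 0.333). In diabetic BMDM, 3 of 6 stimulated libraries for H3K27ac and 4 of 6 for H3K4me3 lay above every unstimulated library. In control BMDM 0 and 2 did. The response of diabetic minus that of control BMDM was 0.228 points for H3K27ac and 0.176 for H3K4me3 (permutation test, adjusted p = 0.380 for both). Without the 3 control BMDM libraries named above, the control differences were −0.115 and 0.0795 points and did not pass either.

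No lncRNA promoter was called between stimulated and unstimulated BMDM, nor any coding promoter, 0% in each of the 4 comparisons. Members with an unadjusted p under 0.05 numbered 6 of 196 and 13 of 184 for H3K27ac in control and diabetic BMDM (3.06% and 7.07%, against 3.51% and 12.4% of all promoters), and 4 of 203 and 5 of 202 for H3K4me3 (1.97% and 2.48%, against 3.17% and 5.11%). Without the 3 control libraries named above 0 members were called in control BMDM too. limma called 0 members in each and 32 promoters in all, those in diabetic BMDM for H3K27ac. Groups without overlap were seen at 0 members for either mark in control BMDM, against 0.169% of all promoters for H3K27ac and 0.129% for H3K4me3. In diabetic BMDM there were 3 for H3K27ac (2.52% of all) and 1 for H3K4me3 (0.442% of all).

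The 3 H3K27ac promoters stood lower after stimulation. G730013B05Rik, an intergenic lncRNA on chromosome 16 at 62652 bp from Ccdc54, ranked 4238, 376, 4087, 3629 and 2085 in unstimulated diabetic BMDM and was held in 3 of 6 stimulated libraries, at 7131, 6751 and 6789 (difference −1.93 ± 0.671, exact permutation test, n = 6 and 5, adjusted p = 0.139). In control BMDM the difference was −0.57 ± 0.381 with overlap. The same member was higher in unstimulated BMDM than in HSC, and those comparisons share the unstimulated libraries. 5033406O09Rik was held in 5 of 5 unstimulated libraries, at 2704, 5292, 6990, 6843 and 8361, and in 0 of 6 stimulated ones, where it ranked 10703 or worse (−0.83 ± 0.285). AC142100.1 was likewise held in 5 of 5 and 0 of 6. For H3K4me3, Gm44238 was held in 6 of 6 stimulated libraries, at 2635, 5217, 5853, 46, 6256 and 4928, and in 0 of 5 unstimulated ones (2.18 ± 1.13, exact permutation test, n = 6 and 5, adjusted p = 0.907). Lockd, with which it shares that region, was held in 2 of 5 of the unstimulated libraries.

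Diabetes was compared with control within each cell state. For H3K27ac in HSC the share of lncRNA promoters held was 2.16% ± 0.111 in diabetic and 2.30% ± 0.0745 in control mice (n = 6 each), a difference of −0.142 points with an unadjusted p of 0.0346 by the exact permutation test that did not pass over 6 comparisons (adjusted p = 0.208). Of the diabetic libraries, 4 lay below every control library. Coding promoters went the other way by 0.189 points, and the diabetic lists were shorter, at 93925 peaks on average against 126994. In unstimulated BMDM the difference was −0.148 points (exact permutation test, n = 5 and 6, adjusted p = 0.771) and in LPS+IFN-γ BMDM 0.0795 points (exact permutation test, n = 6 each, adjusted p = 0.771). The H3K4me3 differences were 0.0193 points for HSC, −0.130 for BMDM without stimulation and 0.0458 after it (exact permutation tests, n = 5 to 6, adjusted p = 0.771, 0.351 and 0.771). Without control unstimulated BMDM 4, the H3K4me3 difference in unstimulated BMDM was −0.191 points and passed (exact permutation test, n = 5 each, adjusted p = 0.0476). Without control unstimulated BMDM 5 and 6, the H3K27ac difference there was −0.251 points (exact permutation test, adjusted p = 0.381) and the H3K4me3 difference −0.123, and without control LPS+IFN-γ BMDM 5 the differences after stimulation were 0.0511 and 0.0096 points. Between HSC and unstimulated BMDM the effect of diabetes differed by 0.00627 points for H3K27ac and 0.149 for H3K4me3 (permutation test, adjusted p = 0.978 and 0.380).

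No lncRNA promoter was called between diabetic and control cells for either mark in any cell state, and no coding promoter was, 0% in each of the 6 comparisons. An exact test of 6 against 6 libraries has a smallest p of 0.00216, so that 4.33% of all promoters would have to reach it before any could be called. Members with an unadjusted p under 0.05 numbered 1 of 194 in HSC, 4 of 180 without and 1 of 203 with stimulation for H3K27ac, while for H3K4me3 they were 6 of 178, 6 of 194 and 7 of 217. These are 0.515%, 2.22% and 0.493% for H3K27ac, against 2.85%, 3.73% and 2.97% of all promoters, and 3.37%, 3.09% and 3.23% for H3K4me3, against 2.96%, 3.44% and 3.97%. limma called 0 members in each and 2 promoters in all, for H3K27ac in unstimulated BMDM. Groups without overlap were found at 0, 1 and 0 members for H3K27ac, against 0.0852%, 0.328% and 0.099% of all promoters, and at 1, 1 and 0 for H3K4me3, against 0.149%, 0.272% and 0.144%.

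The member without overlap for H3K27ac was AC142100.1, held in 5 of 5 diabetic and 1 of 6 control unstimulated BMDM libraries, all at ranks of 5873 or worse. For H3K4me3 in HSC it was Gm26771 on chromosome 3, which overlaps a coding gene on the other strand at 23103 bp from the start of Sfrp2, a Wnt pathway inhibitor gene. It ranked 8298, 4061, 5451, 3215, 3365 and 1276 in diabetic HSC, and in control HSC only 2 libraries held it, at 9427 and 8376 (difference 1.38 ± 0.372, exact permutation test, n = 6 each, adjusted p = 1.0). In unstimulated BMDM its difference was 0.96 ± 0.477 with overlap, and in LPS+IFN-γ BMDM 0.01 ± 0.284. The H3K4me3 member in unstimulated BMDM was E130102H24Rik (chr4:101346531-101356735), which has a CpG-rich start site and stood lower in diabetic cells. It ranked 1439, 1814, 2407, 3725, 1964 and 2794 in control BMDM, and in diabetic BMDM 5338, 5884, 7342 and 9520 in the 4 of 5 libraries that held it (difference −1.72 ± 0.269, exact permutation test, n = 5 and 6, adjusted p = 1.0). In HSC and in LPS+IFN-γ BMDM the differences were −1.94 ± 1.12 and −1.12 ± 0.850, the same direction with overlap. With 3 members in 6 comparisons, none past adjustment, these remain descriptions.

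Of 77 lncRNA genes listed for known functions, 38 were members, and 26 of these were held by at least 1 mark in at least 1 library. Of the 39 others, 18 had another gene type in the annotation, 12 had a start site within 2.5 kb of a coding start site and 9 were not found by that name. Of the 11 members in the list headed broadly expressed, 10 were held and Rmst was not. Expression itself was not examined here. Snhg6, Snhg20, Lncpint, 2900097C17Rik and Epb41l4aos, all with CpG-rich start sites, were held by H3K27ac in 10 or more libraries of each cell state, and by H3K4me3 in 7 or more. Pvt1, the neighbour of Myc, was held by H3K27ac in 11, 9 and 9 libraries and by H3K4me3 in 11, 7 and 8. Miat was held by H3K4me3 only, in 6, 8 and 4.

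Of the 9 members tied to X inactivation or imprinting, 5 were held. Airn, the imprinted antisense RNA of Igf2r, was held by H3K27ac in 0 HSC, 5 unstimulated and 4 stimulated BMDM libraries, and by H3K4me3 in 5, 7 and 8. Kcnq1ot1 was held by H3K27ac in 4, 3 and 3. Ftx, Meg3 and Jpx were the others, Meg3 in a single H3K4me3 library of HSC. Of the 5 microRNA host genes all were held. Mir155hg, which yields miR-155 in activated immune cells, ranked 3014, 9972, 4083, 2149, 1808 and 1609 for H3K27ac in control unstimulated BMDM. After LPS+IFN-γ it ranked 3715, 938, 3315, 1592, 3611 and 2767, and the ranges overlapped in part. Its H3K4me3 rank went the other way. It ranked 6287, 7256, 4578, 611, 4359 and 3448 in unstimulated control BMDM, and only 2 of 6 stimulated libraries held it, at 8753 and 6848. The score difference was −1.38 ± 0.537 in control (exact permutation test, n = 6 each, p = 0.00433, adjusted p = 1.0) and −1.03 ± 0.344 in diabetic BMDM (exact permutation test, n = 6 and 5, p = 0.0108, adjusted p = 0.907). Mir17hg, host of the miR-17 cluster, was held by H3K27ac in 12 of 12 HSC, 11 of 11 unstimulated and 7 of 12 stimulated BMDM libraries.

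Of the 8 members listed for inflammation and myeloid cells, 4 were held, each in few libraries except Mirt1. Ptgs2os2, also known as lincRNA-Cox2, was held by H3K27ac in 1 HSC and 1 stimulated BMDM library, and AW112010, a transcript induced by infection and interferon, in no library. Mirt1 ranked 7412, 7965, 8710, 7841 and 8734 in 5 of 6 control HSC libraries and 10494 in the other, while its best rank in unstimulated BMDM was 17119 (difference 0.25 ± 0.063, exact permutation test, n = 6 each, adjusted p = 0.0913). The groups of Mirt1 ranks did not overlap when ranks past 10000 are counted, but the score sets those to 0. Of the 5 members listed for Hox clusters and stem cells, Lockd and Hoxb3os were held, Hoxb3os by H3K4me3 only, in 5, 4 and 5 libraries. Of the 38 known members, 15 to 18 could be tested in each of the 14 comparisons. One call was made, Jpx higher in HSC than in unstimulated BMDM for H3K27ac in diabetic mice (1 of 16 higher in HSC and 0 lower), and 0 in the other 13. Of all promoters tested in that comparison, 4.44% were called higher in HSC and 5.89% lower. This single call does not set the known members apart from the background. Outside the H3K27ac comparisons of HSC with unstimulated BMDM, no promoter of any kind was called.

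**Figure D4:**
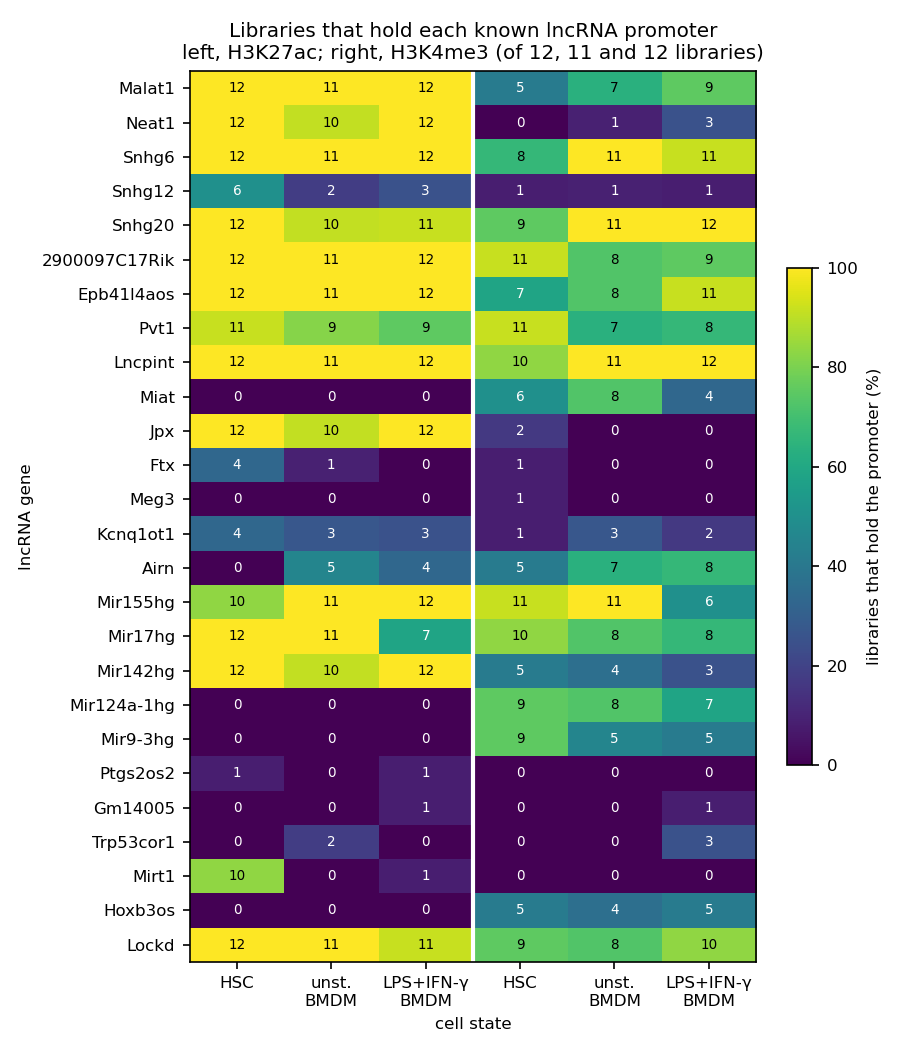
Number of libraries in which a top 10000 peak held the promoter of each of 26 known lncRNA genes (rows), by cell state (columns), for H3K27ac (left) and H3K4me3 (right); colour gives the percentage of the 12, 11 and 12 libraries. Malat1 was held by H3K27ac in 12, 11 and 12 libraries, Mirt1 in 10, 0 and 1, and Mir124a-1hg and Mir9-3hg by H3K4me3 only.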

How the data were processed

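The authors sequenced H3K27ac and H3K4me3 ChIP libraries as 50 bp single reads. The submitters' processing notes name Trim Galore 0.3.3, cutadapt 1.8, FastQC 0.11.3, Bowtie2 2.2.6, Picard 2.18.14 and 2.19.2, bedtools 2.19.1 and MACS2 2.2.7.1, with genome build GRCm38 (mm10). The deposited files are MACS2 peak lists, 1 per library, with a fold enrichment ratio over input, a −log10 p and a −log10 q for each summit and the summit's offset. The authors called peaks per library, so replicates were compared between lists. Read depth cannot be had from these lists, which hold no read counts. The 36 input samples were not used here.

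Summits of 1 interval were joined (9511856 summits, 7828714 peaks) and ranked by the highest −log10 p. Start sites came from GENCODE M21. A promoter was held if a top 10000 peak overlapped it by at least 1 bp. Groups came from the labels. Shares were compared by two-sided exact permutation tests with Benjamini-Hochberg adjustment over 6 disease, 4 stimulation or 4 cell type comparisons, marks by exact sign changes over 3 cell states, and members with coding genes by 100000 resamples over 2 marks. Single promoters held in at least 3 libraries of a comparison were tested likewise, adjusted over all promoters tested. Samples with the same number share an input between marks, and this gave the pairing there (correlation of deviations 0.079 to 0.402). That pairing was kept for the shared input, although in HSC only 10 of 12 pairs passed 0.1. Between groups the correlations of same-numbered libraries did not all pass 0.1, so the numbers were taken as names. Alternatives were all peaks, the top 20000, ranking by fold, −log10 q of at least 2, 250 bp promoters, summits, a distance over 10 kb, limma, a replicate block and each library left out, and limma without libraries was added after seeing the data.

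Members named are the listed known lncRNAs, up to 8 called per direction between cell types, up to 3 without overlap per direction elsewhere, the 10 held most constantly, and examples of mark classes chosen after their values were seen. The members and lists were chosen with earlier results of these data known. Tests were checked on simulated scores. Python 3.11.15, numpy 2.4.6, pandas 2.3.3, scipy 1.17.1, matplotlib 3.10.9, R 4.3.3 and limma 3.58.1 were used.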

Additional observations from a re-analysis of the deposited data

Results flagged for a closer look

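Library 1 of H3K27ac in control LPS+IFN-γ BMDM stood apart from the other 5 of its group in the share of lncRNA promoters held, at 2.57% against a group median of 2.08%. Its gap to the next library was 0.769 of the group's range. Each of the 12 groups was looked at in this way, and chance alone marks about 1 group in 20.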

How the results depend on the processing

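With all deposited peaks the disease differences turned to −3.75 (H3K27ac) and −3.41 (H3K4me3) points in LPS+IFN-γ BMDM, and with a −log10 q of at least 2 to −3.53 and −3.41. The stimulation differences turned to 1.48 and 1.49 (H3K27ac, control), −0.808 and −0.625 (H3K27ac, diabetic) and −1.90 and −1.76 (H3K4me3, control) under these settings, and the mark differences to −3.69 and −3.61 in unstimulated and −3.80 and −3.69 in LPS+IFN-γ BMDM. With the top 20000 the turned values were −0.181 (H3K4me3, disease, HSC), 0.0048 and −0.171 (stimulation, control, H3K27ac and H3K4me3). Ranking by fold turned −0.0458 (H3K4me3, disease, LPS+IFN-γ), −0.0747 (H3K4me3, stimulation, control) and −0.05 (marks, unstimulated). With 250 bp the H3K4me3 disease difference in HSC was −0.0265, with summits the H3K27ac stimulation difference in control was 0.0024, and beyond 10 kb the control stimulation differences were 0.0086 and −0.0057. The mark difference no longer passed with the top 20000 in unstimulated BMDM (0.292, adjusted p = 0.0703, exact permutation test), by fold in LPS+IFN-γ BMDM (0.0277) or without the replicate block there (0.152, adjusted p = 0.115, exact permutation test). Cell type differences came to pass for H3K4me3 in control mice with all peaks (−14.7), −log10 q of at least 2 (−14.6), the top 20000 (−0.521) and fold (−0.412), and for H3K27ac in diabetic mice with the top 20000 (0.776), fold (0.217) and 250 bp (0.214). The cause was not tested.

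Members called between HSC and unstimulated BMDM for H3K27ac numbered, in control mice, 2 by limma with the replicate block, 0 by Fisher's test, 53 with ranks to 20000, 13 with 1 library needed and 0 without the libraries that stood apart, and in diabetic mice 1, 0 and 83 under the first 3. These counts stand without the share of all promoters called. They show how a count moves with the setting and are not a result about the members. Between groups, adding the replicate block changed no call of the shares (diabetes in HSC for H3K27ac −0.142, adjusted p = 0.375, exact permutation test).

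Leaving out 1 library at a time, the disease differences ran from −0.176 to −0.118, −0.208 to −0.0318 and −0.0236 (without diabetic LPS+IFN-γ BMDM 3) to 0.164 for H3K27ac, taking HSC first, then BMDM without and with stimulation. For H3K4me3 they ran from −0.0135 (without control HSC 4) to 0.0646, −0.191 to −0.101 and −0.0275 (without diabetic LPS+IFN-γ BMDM 3) to 0.105. Stimulation differences ran from −0.125 to 0.0757 (without control unstimulated BMDM 1) and 0.0839 to 0.237 for H3K27ac in control and diabetic BMDM, and from −0.0246 (without control unstimulated BMDM 4, and −0.0231 without control LPS+IFN-γ BMDM 1) to 0.0752 and 0.139 to 0.266 for H3K4me3. Cell type differences ran from 0.0487 to 0.225 and 0.0771 to 0.142 for H3K27ac and from −0.287 (without control unstimulated BMDM 4) to −0.194 and −0.0952 to −0.059 for H3K4me3. Mark differences ran from 0.438 to 0.484, 0.159 to 0.230 and 0.137 to 0.172 in the 3 cell states. The exact test called 0 to 13 members in control and 0 in diabetic mice, where 5 against 5 libraries need 15.9% of promoters at the smallest p. The share of all promoters called is not given beside these counts.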
